A study of Mus musculus with 21 samples.

Results

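Integrins are the adhesion receptors that let myeloid cells hold on to vessel walls, matrix and other cells, and 8 of their subunit genes were followed here through myeloid cells sorted from mouse adipose tissue. The genes were taken by symbol from the 54532 genes of the count table. They are Itgax, Itgam, Itgal and Itgb2 of the β2 (CD11/CD18) family and Itga4, Itga6, Itgb1 and Itgb7 of the β1 and β7 families. All 8 passed the filter on low counts, and 19 other integrin subunit genes were read beside them.

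The cells came from adipose tissue of male C57BL/6 mice kept on a high fat diet (HFD, obese mice) or a normal diet (ND, lean mice) for 16 weeks. There were 7 groups with 3 libraries in each. Lean and obese mice both gave MHCII-low macrophages, MHC class II positive macrophages that were CD11c-negative, and monocyte-derived cells, and obese mice alone gave CD11c-positive macrophages. The cells were freed with collagenase and sorted by flow cytometry, and their RNA was amplified before sequencing. The sources used here name neither the fat depot, the age of the mice nor the gate of the monocyte-derived cells, and they do not say whether a library came from 1 mouse or a pool. The p-values therefore measure the spread between these libraries, which may in part be technical. CD11c, the protein of Itgax, was itself a sort marker of the macrophages, so Itgax between the CD11c-negative and CD11c-positive gates is a check of the sort and not a result.

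An integrin is a pair of an α and a β chain, and the pair sets the ligand. The β2 chain (Itgb2, CD18) pairs with αL (Itgal, CD11a), which binds ICAMs on endothelium and antigen-presenting cells, with αM (Itgam, CD11b), which binds complement fragments and fibrinogen, with αX (Itgax, CD11c), a further complement receptor, and with αD (Itgad). The β1 chain (Itgb1) pairs with α4 (Itga4) to bind VCAM-1 and fibronectin and with α6 (Itga6) to bind laminins, while β7 (Itgb7) pairs with α4 to bind MAdCAM-1 of gut vessels. In adipose tissue CD11c is the usual surface marker of the macrophages that gather around dying adipocytes in obesity, and CD11b and CD11c are both used to sort myeloid cells.

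Library totals ran from 11245851 to 35568948 counts, and the lowest total, with 67.1% of counts on coding genes, was that of lean monocyte-derived replicate 3. Levels are CPM, the counts of a gene scaled to a common library size with TMM factors. Markers of macrophages (7 of 7 genes detected in every group) summed to between 8578 and 11567 CPM in the 15 macrophage libraries and to between 2196 and 6861 CPM in the 6 monocyte-derived libraries. Lean monocyte-derived replicate 2 stood apart from replicates 1 and 3 of its group. Its macrophage markers summed to 6861 CPM against 2965 and 2196 CPM, its monocyte markers to 15189 CPM against 4572 and 3972 CPM, and its dendritic cell markers to 420.1 CPM against 1261 and 900.5 CPM. Tests of the 8 genes and the counts of gene lists that use lean monocyte-derived cells are therefore given with and without it.

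Itgam and Itgax are next to each other on chromosome 7 (GRCm38) and are read in the same direction, yet the level of Itgax varied far more across the groups than that of Itgam. Itgal spans chromosome 7 from 127296260 to 127335138, Itgam from 128062640 to 128118491, Itgax from 128129547 to 128150657 and Itgad from 128154376 to 128223816. Only 11.055 kb lie between Itgam and Itgax, whereas 727.501 kb and 38 coding genes lie between Itgal and Itgam. The mean level of Itgax differed 128-fold between its highest and lowest group, and that of Itgam 1.72-fold. The highest Itgax group was the CD11c-positive macrophages (586 CPM), sorted for its protein, so the top of this range follows the sort. The next highest Itgax mean was 340 CPM, in obese monocyte-derived cells, against 4.58 CPM in lean MHCII-low macrophages. The 250 bases before the RefSeq start of both genes are shown because this pair of neighbours carries that contrast, and those of Itga4 and Itgb7 because these genes were highest in the same cells. Each runs 5′ to 3′ on the gene's own strand, with matches to the motifs named below in capitals:
Itgam, chr7:128062390-128062639, plus strand: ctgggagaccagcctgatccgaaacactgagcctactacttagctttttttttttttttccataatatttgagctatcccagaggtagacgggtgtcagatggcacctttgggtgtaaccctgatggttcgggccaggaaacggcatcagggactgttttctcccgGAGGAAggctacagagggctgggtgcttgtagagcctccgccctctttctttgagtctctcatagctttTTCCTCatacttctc
Itgax, chr7:128129300-128129549, plus strand: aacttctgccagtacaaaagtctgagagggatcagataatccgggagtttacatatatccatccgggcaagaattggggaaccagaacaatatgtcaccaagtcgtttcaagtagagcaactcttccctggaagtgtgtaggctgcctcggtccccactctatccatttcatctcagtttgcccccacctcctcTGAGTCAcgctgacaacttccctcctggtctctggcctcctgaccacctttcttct
Itga4, chr2:79255176-79255425, plus strand: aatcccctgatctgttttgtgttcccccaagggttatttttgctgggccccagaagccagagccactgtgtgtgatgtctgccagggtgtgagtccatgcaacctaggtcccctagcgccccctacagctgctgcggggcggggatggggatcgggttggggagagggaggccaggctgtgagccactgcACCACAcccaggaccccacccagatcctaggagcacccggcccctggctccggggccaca
Itgb7, chr15:102231936-102232185, minus strand: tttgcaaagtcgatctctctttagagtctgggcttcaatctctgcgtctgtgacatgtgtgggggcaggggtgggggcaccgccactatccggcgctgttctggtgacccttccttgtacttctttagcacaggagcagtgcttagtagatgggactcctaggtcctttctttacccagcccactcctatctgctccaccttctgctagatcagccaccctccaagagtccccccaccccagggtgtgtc

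The motifs searched on both strands were GAGGAA, the core of sites of the myeloid factor PU.1, TGTGGT, the core of Runx sites, and TGAGTCA, the AP-1 site, and no match overlapped another. Itgam held GAGGAA with its first base at position -84 and its reverse complement TTCCTC at -15, counted from the RefSeq start. Itgax held TGAGTCA at -56, Itga4 held ACCACA, the reverse complement of TGTGGT, at -60, and the Itgb7 window held none of these letters. Among 32851 RefSeq promoters of the same length, 23.3% held the PU.1 core, 14.0% the Runx core and 4.46% the AP-1 site, so that these matches describe the windows and no more. RefSeq promoters (GRCm38.p6) were found for 5 of the 8 genes, Itgb1 among them, and Itgal, Itgb2 and Itga6 had none in the table.

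Itgb2 and Itgb1 were abundant in every group, and Itgax, Itgb7, Itga6 and Itgal varied most between groups. Per kilobase of exon, the scale on which genes can be set beside each other, Itgb2 ranked 1st and Itgb1 2nd of the 8 in all 7 groups with annotated exon lengths. Itgb2 ran from 186 ± 15.8 CPM per kb in lean CD11c-negative macrophages to 326 ± 28.7 CPM per kb in CD11c-positive macrophages (SD, n = 3), and Itgb1 from 101 ± 11.4 CPM per kb in lean monocyte-derived cells to 168 ± 8.93 CPM per kb in CD11c-positive macrophages. The lowest per kilobase was Itgax in lean MHCII-low macrophages (0.954 ± 0.177 CPM per kb), Itga6 in lean CD11c-negative macrophages and in both monocyte-derived groups, and Itgal in the other 3 groups, all from obese mice. Group means of TMM-scaled CPM differed by at most 1.75-fold for Itgb1, Itgam and Itgb2, against 4.36-fold for Itga4, 13.8-fold for Itgal, 16.1-fold for Itga6, 20.6-fold for Itgb7 and 128-fold for Itgax. The highest group of Itgax was the one sorted for its protein. The plot of levels by library shows these patterns gene by gene.

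**Figure D1:**
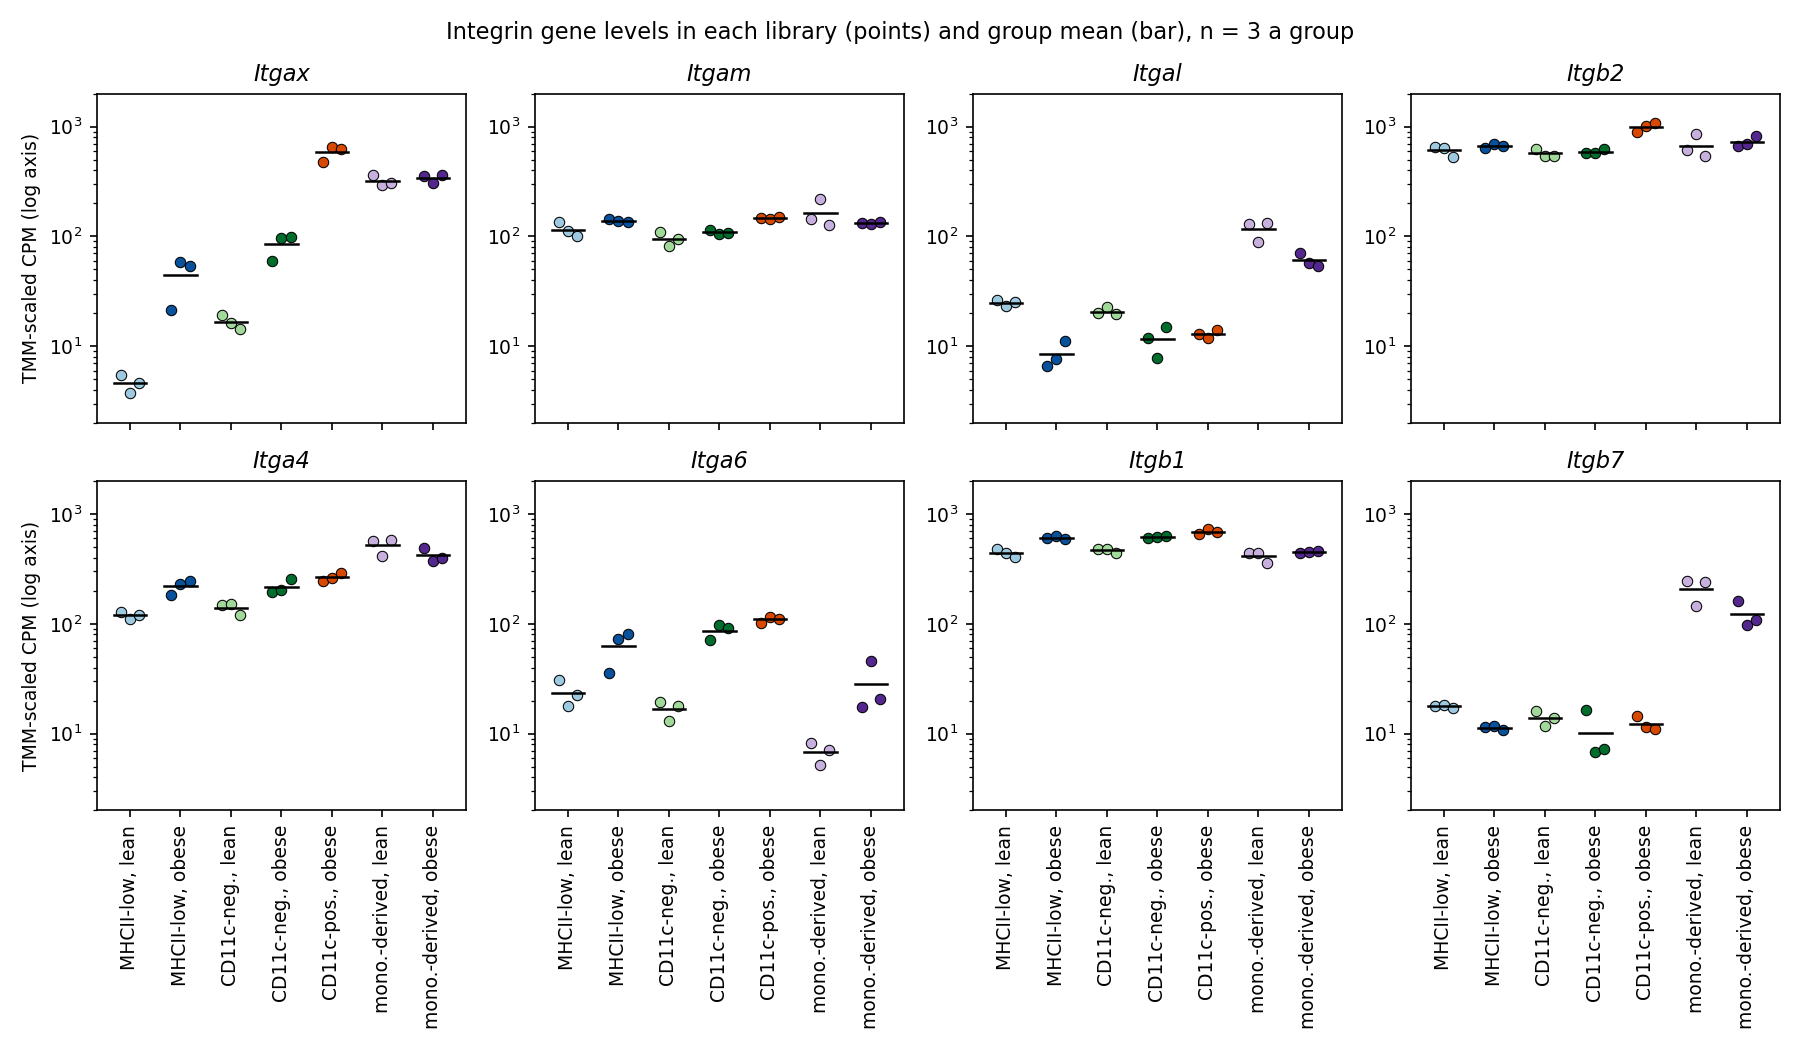
TMM-scaled CPM (log axis) of the 8 integrin genes in each of the 21 libraries; points are libraries, bars are means of 3. Itgb2, Itgb1 and Itgam stay within a narrow band, Itgax runs from 3.74 CPM in a lean MHCII-low library to 648 CPM in a CD11c-positive library, and Itgb7 and Itgal are high in the monocyte-derived libraries.

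Among macrophages, obesity went with more Itgax, Itga4, Itga6 and Itgb1 and less Itgal. In MHCII-low macrophages Itgax, Itga4, Itga6 and Itgb1 were higher and Itgal lower in obese mice, which is 4 of 8 higher where 16.8% of all tested genes were called higher, and 1 of 8 lower where 13.8% were called lower (adjusted p under 0.05, edgeR quasi-likelihood test). In CD11c-negative macrophages 4 of 8 were again higher (16.8% of all genes) and 1 of 8 lower (15.6%). In monocyte-derived cells 1 of 8, Itga6, was higher (7.44%) and 1 of 8, Itgal, lower (9.76%). The median log2 fold change of the 8 genes was 0.37 in MHCII-low macrophages, 0.30 in CD11c-negative macrophages and -0.11 in monocyte-derived cells, beside -0.07, -0.10 and -0.05 over all tested genes.

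**Figure D2:**
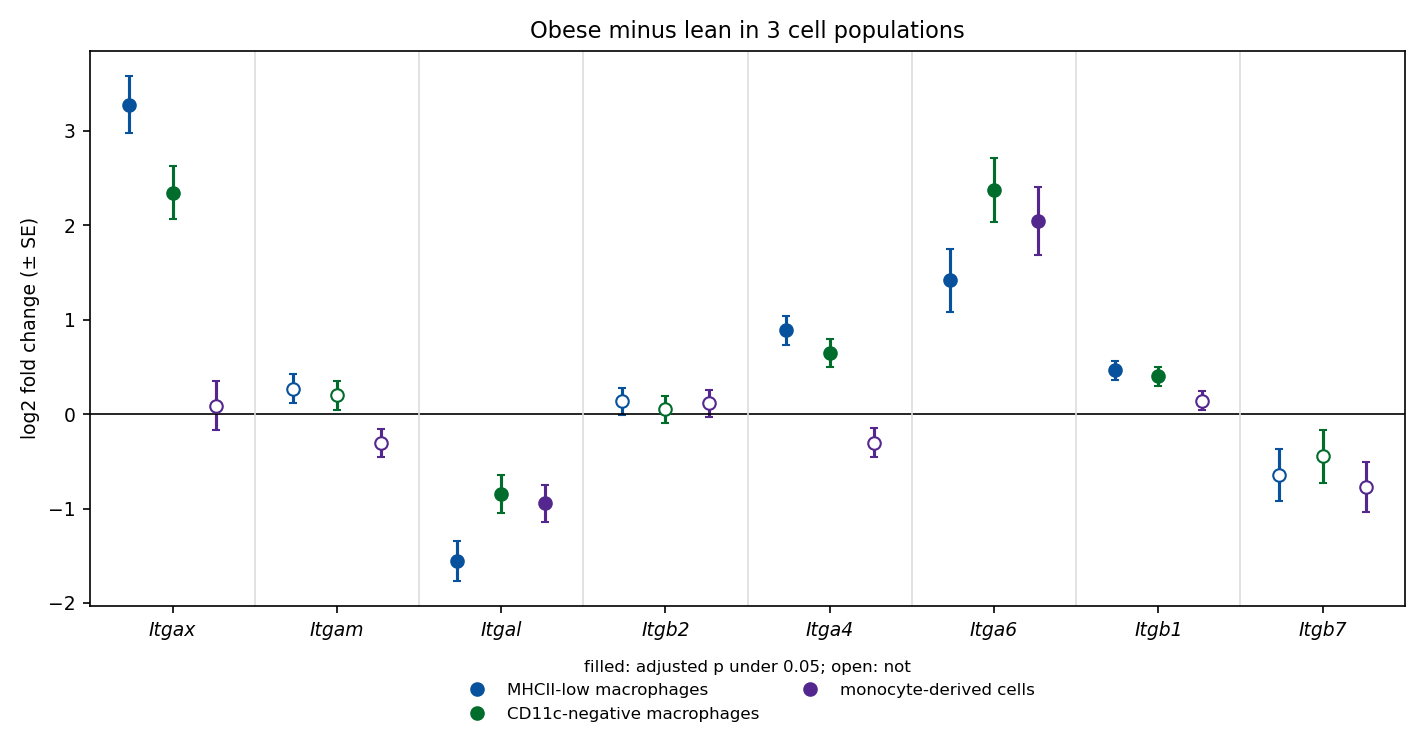
Log2 fold change, obese minus lean, of the 8 integrin genes in 3 sorted populations, with the standard error of each; filled points had an adjusted p under 0.05. Itga6 is above 0 and Itgal below 0 in all 3 populations, and Itgax and Itga4 are filled and above 0 in both macrophage populations.

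Itgax had the largest diet difference of the 8 in MHCII-low macrophages. It stood at 5.44, 3.74 and 4.57 CPM in the lean libraries and at 21.5, 58.3 and 53.7 CPM in the obese libraries. All obese libraries lay above all lean libraries, and obese replicate 1 was the lowest of the obese. The mean was 9.71-fold higher in obese mice (log2 3.28, SE 0.30, adjusted p = 8.73e-07). In CD11c-negative macrophages, sorted for low CD11c protein in both diets, it stood at 19.3, 16.4 and 14.5 CPM in lean and 59.4, 97.2 and 98.3 CPM in obese libraries. The groups again did not overlap, and the mean was 5.08-fold higher in obese mice (log2 2.34, SE 0.28, adjusted p = 1.06e-05). A shift of RNA per cell and a change in the share of CD11c-expressing cells inside a gate cannot be told apart in these bulk libraries, here or below. In monocyte-derived cells Itgax was 361, 294 and 303 CPM in lean and 351, 303 and 365 CPM in obese libraries, and the groups overlapped (log2 0.09, SE 0.26, adjusted p = 0.837, and log2 0.08, adjusted p = 0.862 without lean replicate 2).

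Itgal, the αL chain of LFA-1, was lower in obese mice in all 3 populations. In MHCII-low macrophages it stood at 26.4, 23.1 and 25.1 CPM in lean and 6.58, 7.57 and 11.2 CPM in obese libraries, so that every obese library was under every lean library (log2 -1.56, SE 0.21, adjusted p = 2.33e-05). In CD11c-negative macrophages it stood at 20.1, 22.6 and 19.4 CPM in lean and 11.8, 7.88 and 14.9 CPM in obese libraries (log2 -0.85, SE 0.20, adjusted p = 0.00389), again with no overlap. In monocyte-derived cells, where it was several-fold more abundant, it stood at 129, 88.9 and 132 CPM in lean and 70.0, 57.7 and 54.2 CPM in obese libraries. The lowest lean library there was replicate 2, the group did not overlap the obese libraries, and the difference was log2 -0.94 (SE 0.20, adjusted p = 0.0043). Without lean monocyte-derived replicate 2 it was -1.06 (adjusted p = 0.000568), and without obese monocyte-derived replicate 3 it was -0.69 and lost its call (adjusted p = 0.0591). With the 6 monocyte-derived libraries fitted alone it also missed the threshold (log2 -0.98, adjusted p = 0.0549).

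T and NK cell markers were lower in obese mice in all 3 populations, as Itgal was, and dendritic cell markers in both macrophage populations. Sums of plasmacytoid dendritic cell, adipocyte, monocyte and platelet markers were also lower in both obese macrophage populations. Neutrophil markers were lower in obese mice in all 3 populations, at sums of at most 7.51 CPM in a library. The 7 monocyte markers summed to 4325 to 5604 CPM in lean and 2135 to 4171 CPM in obese MHCII-low macrophages. In CD11c-negative macrophages they summed to 3455 to 5505 CPM and 1499 to 2535 CPM, and in monocyte-derived cells they overlapped between diets. The 12 T and NK cell markers, all 12 detected in every group but 3 to 9 of them under 1 CPM in each macrophage group, summed to 20.3 to 31.5 CPM in lean and 8.01 to 13.1 CPM in obese MHCII-low macrophages, to 23.3 to 26.2 CPM and 8.93 to 10.05 CPM in CD11c-negative macrophages, and to 39.8 to 71.8 CPM and 21.5 to 27.1 CPM in monocyte-derived cells. The 8 dendritic cell markers, all 8 detected in every group with at most 2 under 1 CPM throughout a group, summed to 108 to 127 CPM in lean and 40.3 to 66.0 CPM in obese MHCII-low macrophages and to 95.4 to 107.7 CPM and 27.4 to 34.8 CPM in CD11c-negative macrophages. In monocyte-derived cells the dendritic cell sums overlapped between diets (420.1 to 1261 CPM lean, 367 to 788 CPM obese). Lean replicate 2 there had the highest T and NK cell sum (71.8 CPM) and the lowest Itgal of its group (88.9 CPM). The 7 B cell markers overlapped between diets in CD11c-negative macrophages (22.4 to 24.3 CPM lean, 13.2 to 23.6 CPM obese). They also did in monocyte-derived cells (17.9 to 27.7 and 15.0 to 36.4 CPM), but were lower in obese MHCII-low macrophages. The part of such cells in the diet difference of Itgal was not tested.

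Itga6, the laminin receptor chain, rose with obesity in all 3 populations. In CD11c-negative macrophages it stood at 19.3, 13.1 and 18.0 CPM in lean and 71.9, 98.1 and 90.8 CPM in obese libraries, which was 5.18-fold higher on the means (log2 2.37, SE 0.34, adjusted p = 8.3e-05). In MHCII-low macrophages it stood at 30.6, 17.9 and 22.4 CPM in lean and 35.5, 72.8 and 81.2 CPM in obese libraries (log2 1.42, SE 0.33, adjusted p = 0.00466). Obese replicate 1 was again the lowest of the obese, close to lean replicate 1, and the groups did not overlap. In monocyte-derived cells it was the rarest of the 8 genes in lean mice, with 8.20, 5.17 and 7.12 CPM against 17.6, 45.8 and 20.9 CPM in obese mice (log2 2.04, SE 0.36, adjusted p = 0.00156). It was log2 1.91 without lean monocyte-derived replicate 2 (adjusted p = 0.0048), and with the 6 monocyte-derived libraries fitted alone it missed the threshold (log2 2.01, adjusted p = 0.0511).

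Obese monocyte-derived replicate 2, the highest of its group for Itga6, also had the highest sums of fibroblast and endothelial markers in that group. The same held for B cell and mesothelial markers, among others. Its 8 fibroblast and preadipocyte markers summed to 1491 CPM against 573 and 511 CPM in replicates 1 and 3, and its 7 endothelial markers to 81.8 CPM against 22.0 and 33.6 CPM. Across the diets the fibroblast markers, 8 of 8 detected in every group, summed to 628 to 834 CPM in lean and 932 to 2053 CPM in obese MHCII-low macrophages, to 546 to 754 CPM and 934 to 2196 CPM in CD11c-negative macrophages, and to 195 to 297 CPM and 511 to 1491 CPM in monocyte-derived cells. The endothelial sums overlapped between diets in MHCII-low macrophages (63.0 to 93.6 CPM lean, 39.3 to 71.3 CPM obese). They also did in CD11c-negative macrophages (80.5 to 96.3 and 59.0 to 106.9 CPM) and monocyte-derived cells (35.2 to 50.1 and 22.0 to 81.8 CPM). In obese MHCII-low macrophages the highest fibroblast sum was in replicate 2 (2053 CPM) and the highest Itga6 in replicate 3 (81.2 CPM). The part of fibroblasts and endothelial cells in the differences of Itga6 and Itgb1 was not tested.

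Itgb1, the shared β1 chain, rose by a small and even step in the macrophages. It stood at 481, 439 and 406 CPM in lean and 604, 631 and 594 CPM in obese MHCII-low macrophages (log2 0.46, SE 0.10, adjusted p = 0.00217). In CD11c-negative macrophages it stood at 484, 479 and 442 CPM in lean and 606, 621 and 629.5 CPM in obese libraries (log2 0.40, SE 0.10, adjusted p = 0.00497), and no obese library overlapped a lean one in either population. Without obese CD11c-negative replicate 3 the call in CD11c-negative macrophages was lost (log2 0.39, adjusted p = 0.0574). In monocyte-derived cells the values were 438, 439.9 and 358 CPM in lean and 445, 455 and 462 CPM in obese libraries, which did not overlap and did not pass (log2 0.14, SE 0.10, adjusted p = 0.345, and log2 0.23, adjusted p = 0.0774 without lean replicate 2).

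Itga4, the α4 chain of the VCAM-1 receptor, followed Itgb1 in the macrophages. It stood at 127, 110.3 and 120.0 CPM in lean and 185, 229.6 and 246 CPM in obese MHCII-low macrophages (log2 0.89, SE 0.15, adjusted p = 0.000266). In CD11c-negative macrophages it stood at 148, 150.1 and 120.4 CPM in lean and 196, 205 and 256 CPM in obese libraries (log2 0.65, SE 0.15, adjusted p = 0.00273). The obese libraries lay above the lean ones in both populations. In monocyte-derived cells the order was not the same, with 567, 413 and 580.4 CPM in lean and 491, 376 and 398 CPM in obese libraries, which overlapped (log2 -0.30, SE 0.15, adjusted p = 0.161). Without lean monocyte-derived replicate 2 this difference was called, at log2 -0.40 (adjusted p = 0.0302). Cerkl, on the other strand, shares 8.04% of the exon bases of Itga4 and had 16 to 92 counts per library, against 2273 or more for Itga4.

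Itgam, Itgb2 and Itgb7 did not pass the test for diet in any population, though the fall of Itgb7 passed under several alternatives given below. Itgam stood at 134, 112 and 100.5 CPM in lean and 144, 137 and 136 CPM in obese MHCII-low macrophages, which did not overlap but did not pass (log2 0.27, SE 0.15, adjusted p = 0.187). Itgb2 stood at 655, 633 and 533 CPM in lean and 639, 700.5 and 660.0 CPM in obese MHCII-low macrophages (log2 0.13, SE 0.14, adjusted p = 0.489). Itgb7 was below lean in obese mice by value in all 3 populations, with log2 -0.65 (SE 0.28, adjusted p = 0.0802) in MHCII-low macrophages, -0.45 (SE 0.28, adjusted p = 0.224) in CD11c-negative macrophages and -0.77 (SE 0.26, adjusted p = 0.0503) in monocyte-derived cells. Its monocyte-derived libraries stood at 245, 144 and 240.3 CPM in lean and 163, 97.0 and 108 CPM in obese mice, where only lean replicate 2 fell inside the obese range. Without that library the fall was called (log2 -0.94, adjusted p = 0.0144), as was a rise of Itgb2 (log2 0.38, adjusted p = 0.0185), which brings the count in monocyte-derived cells to 2 higher and 3 lower (16.5% and 21.9% of all genes). DESeq2 also called the fall of Itgb7 in MHCII-low macrophages (log2 -0.72, adjusted p = 0.0356) and in monocyte-derived cells (log2 -0.82, adjusted p = 0.0217). The edgeR test called it in the same populations with no filter (adjusted p = 0.00396 and 0.00235) and with the replicate block by title number (0.0219 and 0.0118). That block joins lean and obese libraries of equal number, between which the labels state no link. The fall of Itgb7 was also called with DESeq2 size factors in monocyte-derived cells (0.0436) and with the compared libraries alone in MHCII-low macrophages (0.00191). In CD11c-negative macrophages it passed without obese replicate 1 (log2 -0.97, adjusted p = 0.00342), and in monocyte-derived cells it also passed without obese replicate 1 (log2 -0.85, adjusted p = 0.0468).

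The diet differences of Itgax and Itga4 were themselves different between monocyte-derived cells and macrophages. Against MHCII-low macrophages the diet difference of monocyte-derived cells was smaller by log2 -3.19 for Itgax (SE 0.40, adjusted p = 0.00011) and log2 -1.19 for Itga4 (SE 0.21, adjusted p = 0.00232), where 2.43% of all genes were called in that direction and 1.9% in the other. Against CD11c-negative macrophages it was smaller by log2 -2.25 for Itgax (SE 0.38, adjusted p = 0.00191) and log2 -0.95 for Itga4 (SE 0.21, adjusted p = 0.0109), with 2.51% and 3.85% of all genes called. These tests share the monocyte-derived libraries. Without lean monocyte-derived replicate 2 all 4 were still called, and Itga4 against CD11c-negative macrophages lost its call without obese CD11c-negative replicate 3 (log2 -0.64, adjusted p = 0.114), without obese monocyte-derived replicate 2 (log2 -0.68, adjusted p = 0.0917) and without obese monocyte-derived replicate 3 (log2 -0.74, adjusted p = 0.0862). Between MHCII-low and CD11c-negative macrophages the edgeR test called 0% of all genes different in diet response, and DESeq2 called 3. An unadjusted p under 0.05 was found for 634 genes, only 2.76% of all genes. In that comparison Itgal (log2 0.71, SE 0.29) and Itgax (log2 -0.93, SE 0.40) had unadjusted p-values of 0.0227 and 0.0295 and adjusted p-values of 0.999931.

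Between macrophage populations Itgax and Itgb2 were the genes of the 8 that passed the test. Within lean mice CD11c-negative macrophages had 3.65-fold more Itgax than MHCII-low macrophages (log2 1.86, SE 0.30, adjusted p = 0.00154), and 1 of 8 genes was called higher (1.05% of all genes) and 0 lower (0.253%). Within obese mice the edgeR test called 0 of the 8 between the same populations (1.19% of all genes higher, 1.85% lower). Itgax, Itgam and Itgal had an unadjusted p under 0.05, as did 13.3% of all genes. Itgax was 1.91-fold higher there on the means (log2 0.93, SE 0.27, adjusted p = 0.0671) with no overlap between the groups. DESeq2 called it (log2 0.93, adjusted p = 0.0133). Of the fits with a replicate block, that by the description numbers, set within each diet, called it (log2 0.98, adjusted p = 0.0103). The block by title numbers, which put lean and obese libraries of equal number together, did not (log2 0.95, adjusted p = 0.0661). Obese libraries have the same numbers in titles and descriptions, so these fits differ in joining the diets and in the lean blocks. It did not pass with the 6 compared libraries fitted alone (log2 0.93, adjusted p = 0.224). It also passed without obese CD11c-negative replicate 1 (log2 1.14, adjusted p = 0.041) and without obese MHCII-low replicate 2 (log2 1.17, adjusted p = 0.0442). Itgam was called lower in CD11c-negative macrophages with the compared libraries fitted alone (log2 -0.36, adjusted p = 0.0376).

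CD11c-positive macrophages carried the sort marker and more of its β partner. Itgax stood at 480.1, 648 and 631 CPM in CD11c-positive against 59.4, 97.2 and 98.3 CPM in CD11c-negative macrophages of obese mice, a ratio of means of 6.90 that follows the sort. Itgb2, which was not a stated sort marker, stood at 899, 1013 and 1071 CPM against 574, 572 and 619.5 CPM. All CD11c-positive libraries were above all CD11c-negative libraries (log2 0.76, SE 0.14, adjusted p = 0.0062). Itgax and Itgb2 make up the 2 of 8 genes called higher (1.38% of all genes), with 0 lower (2.11%), and the call of Itgax was set by the sort. Both replicate blocks gave the same 2 counts for the integrins. The calls over all genes, 801 with no block, were 1009 by title number and 2364 by description number. Itgb2 lost its call without CD11c-negative replicate 1 (adjusted p = 0.0824) or 2 (0.0557) and without CD11c-positive replicate 2 (0.0789) or 3 (0.0795), at a log2 fold change between 0.73 and 0.77. Itgam was 1.35-fold higher by its means, at 148, 143 and 150.2 CPM against 113, 105 and 108 CPM, and did not pass (log2 0.43, SE 0.15, adjusted p = 0.121), though DESeq2 called it (log2 0.45, adjusted p = 0.0397). The edgeR test on the compared libraries alone also called it (log2 0.41, adjusted p = 0.00784).

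**Figure D3:**
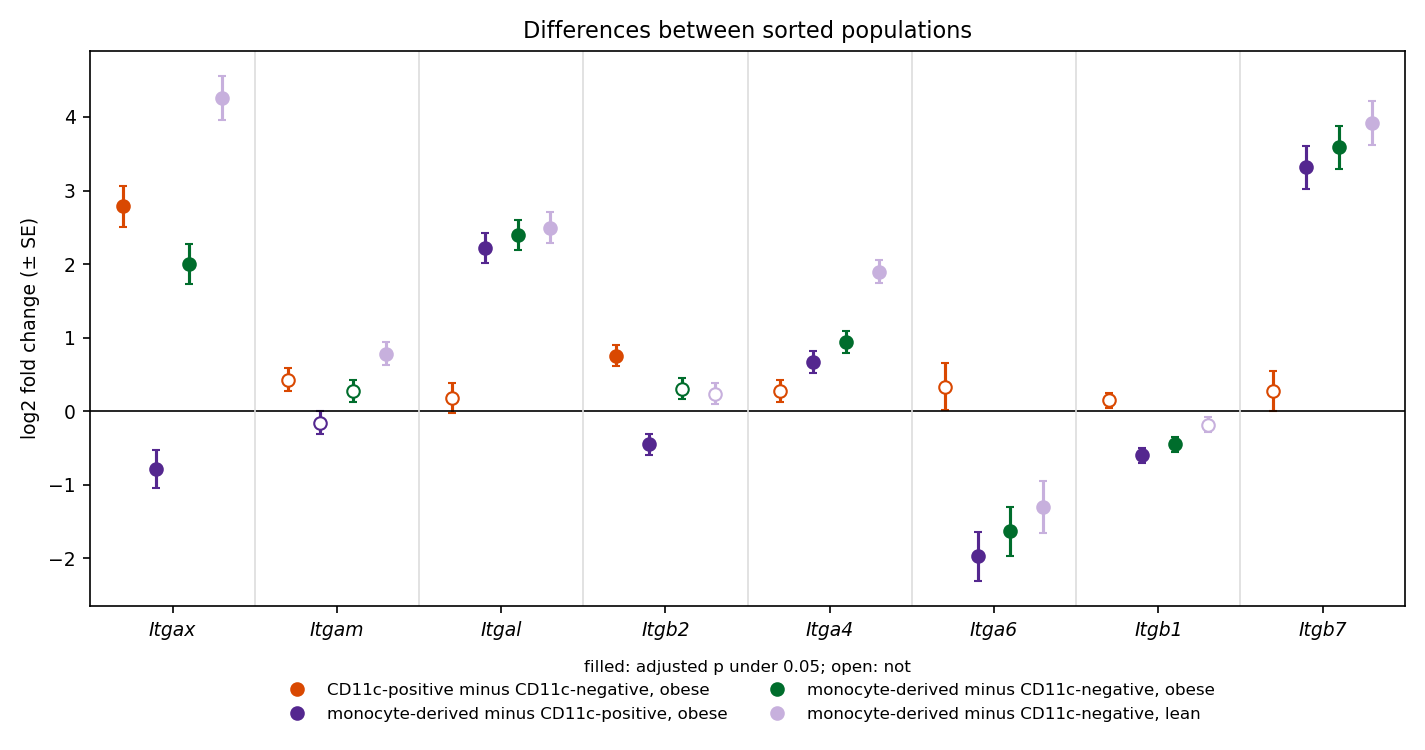
Log2 fold change of the 8 integrin genes in 4 comparisons between sorted populations, with the standard error of each; filled points had an adjusted p under 0.05. The comparisons share libraries. Itgal, Itga4 and Itgb7 are above 0 and Itga6 below 0 in all 3 comparisons of monocyte-derived cells with macrophages, and Itgax against the CD11c gates reflects the sort.

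Monocyte-derived cells had another integrin set than the macrophages. Against CD11c-negative macrophages of obese mice, Itgax, Itgal, Itga4 and Itgb7 were higher (4 of 8, 11% of all genes) and Itga6 and Itgb1 lower (2 of 8, 12.8%). With those libraries fitted alone Itgam (log2 0.32, adjusted p = 0.0093) and Itgb2 (log2 0.35, adjusted p = 0.0262) were also called higher. Against CD11c-positive macrophages, with which that comparison shares the monocyte-derived libraries, Itgal, Itga4 and Itgb7 were higher (3 of 8, 19.3%) and Itgax, Itgb2, Itga6 and Itgb1 lower (4 of 8, 19.4%). In lean mice, against CD11c-negative macrophages, Itgax, Itgam, Itgal, Itga4 and Itgb7 were higher (5 of 8, 23.6%) and Itga6 lower (1 of 8, 20.1%). Without lean monocyte-derived replicate 2 these 6 calls held and Itgb1 was also called lower (log2 -0.25, adjusted p = 0.0448). Itgax is among the called genes in each of these comparisons, and CD11c was part of the gate of the macrophages compared.

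Within obese mice Itgb7 had the widest gap of the 8 between the monocyte-derived cells and the macrophages. It stood at 14.4, 11.5 and 11.1 CPM in CD11c-positive and 16.5, 6.83 and 7.31 CPM in CD11c-negative macrophages of obese mice, against 163, 97.0 and 108 CPM in obese monocyte-derived cells. No macrophage library of any group exceeded 18.3 CPM, and no monocyte-derived library was below 97.0 CPM. The differences were log2 3.31 (SE 0.29, adjusted p = 1.74e-07) against CD11c-positive and 3.59 (SE 0.29, adjusted p = 1.14e-07) against CD11c-negative macrophages in obese mice, and 3.91 (SE 0.30, adjusted p = 6.87e-09) against CD11c-negative macrophages in lean mice. The last was 4.10 without lean monocyte-derived replicate 2. In lean mice the gap of Itgax was wider (log2 4.25, SE 0.30, adjusted p = 3.02e-09, and 4.29 without that library), and CD11c was part of the gate of those macrophages.

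Itgal and Itga4 ran the same way with smaller steps. Itgal was 4.65-fold higher on the means than in CD11c-positive macrophages (log2 2.22, SE 0.21, adjusted p = 1.73e-07) and 5.26-fold higher than in CD11c-negative macrophages of obese mice (log2 2.40, SE 0.21, adjusted p = 1.07e-07). Itga4, at 491, 376 and 398 CPM in obese monocyte-derived cells against 247, 263 and 287 CPM in CD11c-positive macrophages, was 1.59-fold higher (log2 0.67, SE 0.15, adjusted p = 0.00146). In lean mice the step of Itga4 from CD11c-negative macrophages was 3.73-fold (log2 1.90, SE 0.15, adjusted p = 5.11e-09) and that of Itgal 5.64-fold (log2 2.50, SE 0.21, adjusted p = 8.49e-09). All monocyte-derived libraries lay above all macrophage libraries for Itgal, Itga4 and Itgb7, and the share of all genes that did so was not counted. The lean steps were log2 2.02 for Itga4 and 2.64 for Itgal without lean monocyte-derived replicate 2.

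The laminin receptor chain went the other way. Itga6 stood at 103, 115 and 111 CPM in CD11c-positive macrophages, its highest group, and at 17.6, 45.8 and 20.9 CPM in obese monocyte-derived cells (log2 -1.97, SE 0.33, adjusted p = 0.000182). In lean mice it was 0.407-fold of its level in CD11c-negative macrophages (log2 -1.30, SE 0.36, adjusted p = 0.00709), and without lean monocyte-derived replicate 2 the difference was -1.14 (adjusted p = 0.0387). Itgb1 stood at 655, 727 and 681 CPM in CD11c-positive macrophages against 445, 455 and 462 CPM in obese monocyte-derived cells (log2 -0.60, SE 0.10, adjusted p = 9.56e-05). Itgax and Itgb2 were lower in monocyte-derived cells than in CD11c-positive macrophages by log2 -0.79 (SE 0.26, adjusted p = 0.0241) and -0.45 (SE 0.14, adjusted p = 0.0171). Both lost their call when CD11c-positive replicate 2 or 3, or monocyte-derived replicate 1 or 2, was left out (adjusted p from 0.0536 to 0.112). Itgam was higher in lean monocyte-derived cells than in lean CD11c-negative macrophages, at 144, 219 and 127 CPM against 109.7, 81.5 and 93.7 CPM (log2 0.78, SE 0.15, adjusted p = 0.000358), and by log2 0.49 without replicate 2, the highest library (adjusted p = 0.00239).

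In order of group means, Itgax ran from CD11c-positive macrophages (586 ± 92.5 CPM) through obese (340.1 ± 32.4) and lean monocyte-derived cells (319 ± 36.7), obese CD11c-negative (85.0 ± 22.2) and obese MHCII-low macrophages (44.5 ± 20.1) to lean CD11c-negative (16.7 ± 2.41) and lean MHCII-low macrophages (4.58 ± 0.849 CPM; SD, n = 3). Only the monocyte-derived groups overlapped among these neighbours. For Itga6 the order was CD11c-positive (109.8 ± 6.41 CPM), obese CD11c-negative (86.9 ± 13.5) and obese MHCII-low macrophages (63.2 ± 24.4), obese monocyte-derived cells (28.1 ± 15.5), lean MHCII-low (23.6 ± 6.44) and lean CD11c-negative macrophages (16.8 ± 3.29) and lean monocyte-derived cells (6.83 ± 1.54 CPM; SD, n = 3). There the libraries of the 1st group, and those of the last, overlapped no neighbour, and the 5 groups between did overlap their neighbours in order. Itgb7 fell from lean (209.8 ± 56.7 CPM) and obese monocyte-derived cells (123 ± 35.3 CPM), which overlapped, to 17.8 ± 0.587 CPM in lean MHCII-low macrophages, and the other 4 macrophage groups, between 10.2 and 13.9 CPM, overlapped in turn.

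Dendritic cell markers set the monocyte-derived libraries apart in the same way as Itgb7 and Itgal. The 8 markers (Flt3, Zbtb46, Dpp4, Xcr1, Clec9a, Cd209a, Ccr7 and Batf3) were all detected in every group and summed to between 26.8 and 127 CPM in the macrophage libraries, 420.1 to 1261 CPM in lean and 367 to 788 CPM in obese monocyte-derived cells. Within each monocyte-derived group the library with the lowest marker sum was replicate 2, and it also had the lowest Itgb7. Plasmacytoid dendritic cell markers did not follow, at 5.99 to 14.1 CPM in lean and 4.76 to 8.52 CPM in obese monocyte-derived cells against 30.3 to 41.3 CPM in lean MHCII-low macrophages. How much of Itgb7 and Itgal came from dendritic cells was not tested.

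**Figure D4:**
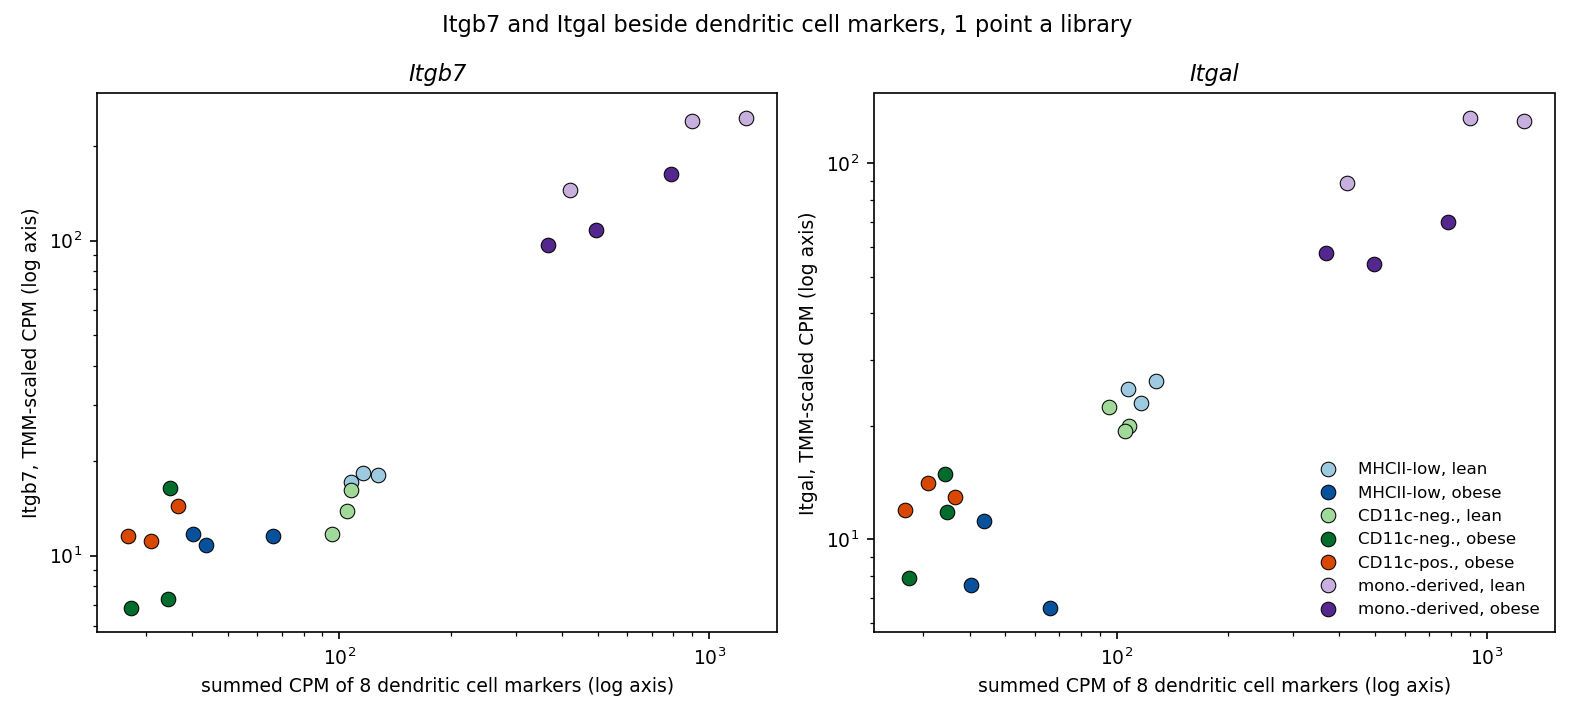
TMM-scaled CPM of Itgb7 and of Itgal (log axes) against the summed CPM of 8 dendritic cell markers, with 1 point for each of the 21 libraries, coloured by group. The 6 monocyte-derived libraries, at marker sums of 367 CPM or more, hold all Itgb7 values of 97.0 CPM or more, and the macrophage libraries lie at 127 CPM or less of markers.

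The share of Itgax among the partners of the β2 chain was lowest in lean MHCII-low and highest in CD11c-positive macrophages, which were sorted for its protein. As a share of the summed CPM per kb of Itgal, Itgam, Itgax and Itgad within a library, Itgam made up 82.5% ± 1.81 and Itgax 3.43% ± 0.461 in lean MHCII-low macrophages (SD, n = 3). In obese MHCII-low macrophages the Itgax share was 23.6% ± 9.16, in lean and obese CD11c-negative macrophages 13.6% ± 1.32 and 42.1% ± 7.56, and in CD11c-positive macrophages 78.7% ± 3.08, the last by the sort. In monocyte-derived cells it was 56.6% ± 4.68 in lean (59.2% without replicate 2) and 66.0% ± 1.95 in obese mice. Itgal held 13.7% ± 1.46 in lean and 3.34% ± 0.789 in obese MHCII-low macrophages, and Itgad never exceeded 1.14% in a library.

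**Figure D5:**
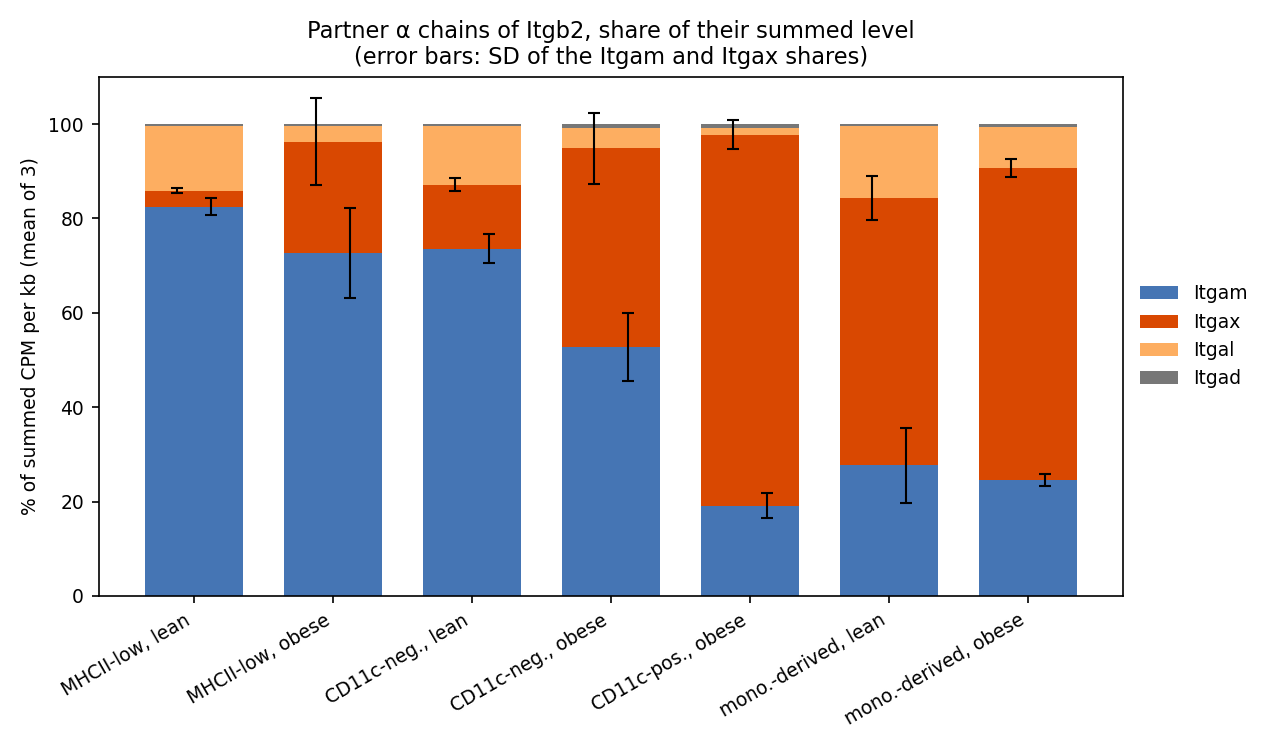
Mean share (% of summed CPM per kb, 3 libraries a group) of the 4 partner α chains of Itgb2 in each group; error bars are the SD of the Itgam and Itgax shares. Exon lengths are as annotated, and the Itgax part is 3.43% in lean MHCII-low macrophages and 78.7% in CD11c-positive macrophages, or 1.22% and 55.5% with the unshared bases of Itgam alone.

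The level and share of Itgam may be understated, and the share of Itgax overstated. The read-through gene model Gm49368 runs on the same strand through 3450 of the 5024 exon bases of Itgam (68.7%), and the sources used here do not say how reads in shared exons were counted. Gm49368 itself held 0 to 27 counts per library. If only the 1574 unshared bases were counted, Itgam would stand at 73.4 rather than 23.0 CPM per kb in lean MHCII-low macrophages and at 93.4 rather than 29.3 CPM per kb in CD11c-positive macrophages, where Itgax stood at 122 CPM per kb. The share of Itgax would then be 1.22% in lean MHCII-low macrophages and 55.5% in CD11c-positive macrophages, where it would still exceed that of Itgam (42.9%). In both monocyte-derived groups the order would turn, with 54.3% Itgam and 35.7% Itgax in lean and 51.0% and 42.9% in obese mice. In lean monocyte-derived cells Itgam would also pass Itgb1 (103.7 against 101 CPM per kb). The fold changes of Itgam between groups use no gene length.

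The 4 α partners together reached a mean of 0.140 of the Itgb2 level per kb in lean MHCII-low macrophages and 0.137 in lean CD11c-negative macrophages, against 0.474 in CD11c-positive macrophages and 0.551 in lean monocyte-derived cells (0.617 without replicate 2). With the unshared bases of Itgam these ratios would be 0.393, 0.359, 0.672 and 0.872. The ratio of Itgb7 to Itgb1, which share α4 as a partner, was 0.0244 to 0.0595 in the mean of each macrophage group and 0.765 ± 0.257 in lean monocyte-derived cells (SD, n = 3), with the lowest library, replicate 2, at 0.484 and a mean of 0.906 without it. In obese monocyte-derived cells it was 0.540, 0.314 and 0.346. Itga4 to Itgb1 ran from 0.0790 ± 0.00662 in lean MHCII-low macrophages to 0.375 ± 0.0995 in lean monocyte-derived cells (0.425 without replicate 2). Itga6 to Itgb1 was highest in CD11c-positive macrophages (0.0722 ± 0.00156) and lowest in lean monocyte-derived cells (0.00759 ± 0.00199, and 0.00873 without replicate 2). These are ratios of RNA levels per kilobase within a library and carry no test.

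Among the 19 other integrin subunits, Itgav and Itgb5, the chains of the αvβ5 vitronectin receptor, were higher in obese mice in all 3 populations. Itgav stood at 163 ± 7.28 CPM in CD11c-negative macrophages of lean mice and 397 ± 42.9 CPM in those of obese mice (SD, n = 3; log2 1.28, SE 0.14, adjusted p = 2.16e-06), and Itgb5 at 57.5 ± 2.77 and 211 ± 41.0 CPM (log2 1.88, SE 0.27, adjusted p = 5.76e-05). Itga9, an α chain that pairs with β1, was called for diet in monocyte-derived cells, where it was higher in obese mice at 35.9 ± 13.7 against 8.06 ± 1.80 CPM (SD, n = 3; log2 2.14, SE 0.19, adjusted p = 4.22e-07). Its diet difference there exceeded that in MHCII-low macrophages by log2 2.32 (SE 0.26, adjusted p = 2.87e-05). Without lean monocyte-derived replicate 2 the diet differences there were log2 1.11 for Itgav, 2.38 for Itgb5 and 2.39 for Itga9, and that between the populations 2.58 for Itga9, all still called. Itga9 was also lower in CD11c-positive than in CD11c-negative macrophages (79.9 ± 3.54 against 144 ± 4.66 CPM; SD, n = 3; log2 -0.85, SE 0.17, adjusted p = 0.00998). Of the 19, the test called 2 higher and 4 lower for diet in MHCII-low macrophages (16.8% and 13.8% of all genes), 3 and 3 in CD11c-negative macrophages (16.8% and 15.6%) and 3 and 5 in monocyte-derived cells (7.44% and 9.76%). The last was 3 and 7 without lean monocyte-derived replicate 2 (16.5% and 21.9% of all genes). Itga5, the fibronectin receptor chain, falls outside the rule for named genes and was added after its values were seen: it stood between 84.9 and 133 CPM per kb in every group, above Itga4 and Itga6, and did not pass for diet in any population.

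Of 33 genes that link integrins to the actin skeleton or set their activity, the diet test called 9 higher and 5 lower in MHCII-low macrophages (16.8% and 13.8% of all genes), 11 and 8 in CD11c-negative macrophages (16.8% and 15.6%) and 5 and 5 in monocyte-derived cells (7.44% and 9.76%). In the last the count was 12 and 6 without lean replicate 2 (16.5% and 21.9% of all genes). Ptk2b, the kinase Pyk2, was higher in obese mice in all 3 (in monocyte-derived cells log2 0.67 without lean replicate 2), and in CD11c-negative macrophages it went from 45.2 ± 1.65 CPM in lean to 112 ± 4.27 CPM in obese mice (SD, n = 3; log2 1.31, SE 0.14, adjusted p = 2.08e-06). Ptk2, the related focal adhesion kinase, was lower in obese CD11c-negative macrophages (18.7 ± 1.79 against 50.2 ± 2.33 CPM; SD, n = 3; log2 -1.42, SE 0.18, adjusted p = 1.06e-05). Rasgrp2, the exchange factor for Rap1 upstream of integrin activation, fell in both macrophage populations, by log2 -1.21 (SE 0.18) in MHCII-low and -1.92 (SE 0.19) in CD11c-negative macrophages. Vcl, encoding vinculin, fell with obesity in monocyte-derived cells (log2 -0.62, SE 0.11, adjusted p = 0.000824, and -0.57 without lean replicate 2) and was higher in CD11c-positive than in CD11c-negative macrophages (log2 0.58, SE 0.11, adjusted p = 0.00516). Cytip, whose product binds cytohesin-1 and lowers LFA-1 adhesion, was 3.91-fold higher in monocyte-derived cells than in CD11c-positive macrophages (log2 1.97, SE 0.31, adjusted p = 7.37e-05).

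Among 12 tetraspanins and other membrane partners of integrins Cd9 had the largest diet difference in both macrophage populations. Cd9, a tetraspanin that associates with β1 integrins, went in CD11c-negative macrophages from 12.7 ± 3.80 CPM in lean to 152 ± 45.1 CPM in obese mice (SD, n = 3; log2 3.58, SE 0.33, adjusted p = 1.19e-06), and rose by log2 3.47 (SE 0.34) in MHCII-low macrophages. In monocyte-derived cells it did not pass (log2 0.42, SE 0.30, adjusted p = 0.346), and its diet difference there was smaller than in MHCII-low and CD11c-negative macrophages by log2 -3.05 (adjusted p = 0.000631) and -3.17 (adjusted p = 0.000636), or -3.12 and -3.26 without lean replicate 2. Cd63, another tetraspanin, went in monocyte-derived cells from 28.0 ± 9.51 CPM in lean to 125 ± 25.5 CPM in obese mice (SD, n = 3; log2 2.15, SE 0.22, adjusted p = 2.79e-06, and 2.03 without lean replicate 2). Cd151, a partner of laminin-binding integrins such as α6β1, was higher in obese mice in all 3 populations, by log2 0.82 (SE 0.21), 0.99 (SE 0.21) and 1.19 (SE 0.22), the last being 1.54 without lean replicate 2. Cd47, which binds thrombospondin and αvβ3, was higher in obese MHCII-low and CD11c-negative macrophages, by log2 0.63 and 0.81 (SE 0.15 each). Cd81 went the other way, lower in obese CD11c-negative macrophages (log2 -0.91, SE 0.31, adjusted p = 0.0317). It was also lower in obese monocyte-derived cells (log2 -1.24, SE 0.31, adjusted p = 0.0142), at 41.4 ± 9.29 against 97.7 ± 71.4 CPM (SD, n = 3). In MHCII-low macrophages it did not pass (log2 -0.45, adjusted p = 0.277). The lean spread of Cd81 in monocyte-derived cells was wide, and its value there is given with lean replicate 2 only. Of the 12 genes 6 were called higher and 0 lower in MHCII-low macrophages (16.8% and 13.8% of all genes), 6 and 1 in CD11c-negative macrophages (16.8% and 15.6%) and 3 and 1 in monocyte-derived cells (7.44% and 9.76%). Without lean replicate 2 the last was 6 and 1 (16.5% and 21.9%). Between obese monocyte-derived cells and CD11c-positive macrophages 6 of 12 were lower and 1 higher (19.4% and 19.3% of all genes), with Tspan4 at 5.14 ± 0.961 against 28.0 ± 1.07 CPM (SD, n = 3).

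Over the 21 libraries, Itgal and Itgb7 had the highest Pearson r of log2 CPM among pairs of the 8 genes (0.94), followed by Itga6 with Itgb1 (0.89) and Itgax with Itga4 (0.86). These values describe libraries that fall into 7 groups and share their depth and scaling, and they carry no test. Among 7561 coding genes with a mean of at least 10 CPM, the closest to Itgax were Ap1ar (r = 0.98), Esyt1 and Xylt1, and to Itgb7 Nr4a3 (r = 0.98), Zbtb46 and Kdm5c. Zbtb46 is also in the dendritic cell list. Itgal was closest to Klrk1 (r = 0.97), P2ry10 and Il18rap, Itga4 to Slc25a20 (r = 0.98), Cep83 and Plscr1, and Itga6 to Adgrl2 (r = 0.98), Gpr137b and Mical2. Itgb1 was closest to Cav2 (r = 0.98), Nckap1l and Sacm1l. The values were lower for the genes of narrow range, with Tspan5 (r = 0.90), Oxct1 and Ogdh for Itgb2 and Capn5 (r = 0.86), Rab3d and Ncf1 for Itgam.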

How the data were processed

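RNA of sorted cells was taken with the PicoPure kit and made into libraries with the NuGen Ovation Mouse RNA-Seq System, per the labels' protocols. The submitters' processing notes name Trim Galore 0.4.5, STAR 2.6.0a, Subread 1.4.6-p5 (featureCounts) and GRCm38, and the authors deposited raw counts per gene in 1 table. Counting options, strand included, are not stated there. Totals ran from 11245851 to 35568948 counts per library, and precision for rare genes is limited by them.

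The deposited counts of 22935 genes that passed filterByExpr were fitted over all 21 libraries and 7 groups (14 residual degrees of freedom) with edgeR 4.0.16 (R 4.3.3), by TMM scaling and the robust quasi-likelihood test. Adjusted p-values are Benjamini-Hochberg over all tested genes, with a threshold of 0.05, and every adjusted p in the text is from this two-sided test unless DESeq2 1.42.0 is named. The script was tested on simulated data. Log2 CPM used a prior count of 2, and levels per kb used GENCODE M21 exon lengths. Alternatives were DESeq2, its size factors, no filter, the compared libraries alone, replicate blocks and leaving out each library. Levels by the unshared exon bases of Itgam, and gene lists, levels and ratios without lean monocyte-derived replicate 2, were chosen after seeing the data.

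The 8 genes and all gene lists were chosen with earlier results of these data known. Named from each list were up to 4 called genes per comparison by smallest p with at least 10 CPM in the higher group, and for each member the 3 genes most like it. Replicate numbers paired the obese libraries: deviations from group means correlated above 0.1 in 18 of 18 equal-numbered pairs (0.121 to 0.741), against 4 of 9 pairs of lean libraries with equal title numbers and 5 of 7 with equal description numbers. Blocked values therefore stand beside comparisons within obese mice where they change a call. The block by title number put lean and obese libraries of equal number together, and that by description number was set within each diet.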

Additional observations from a re-analysis of the deposited data

Results flagged for a closer look

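The effect of diet differed between cell populations, by a test of the difference itself, for Itgax and Itga4. For Itgax the obese-minus-lean difference in monocyte-derived cells minus that in MHCII-low macrophages was -3.19 on the log2 scale (adjusted p = 0.00011), and minus that in CD11c-negative macrophages it was -2.25 (adjusted p = 0.00191). For Itga4 the same differences were -1.19 (adjusted p = 0.00232) and -0.95 (adjusted p = 0.0109). All 4 values use the same lean and obese monocyte-derived libraries. Itgax was part of the gates of the CD11c-negative macrophages, and its part in these differences was not tested.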

How the results depend on the processing

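No integrin value that was called in the main fit or in the alternative changed sign between them. Changes of sign where neither fit called the gene were not counted. Under DESeq2 92 of 96 values stayed on their side of the threshold, under its size factors 95, with no filter 91, with the compared libraries alone 89, with the replicate block by title number 94 of 96, by description number 71 of 72, and without single libraries 691 of 720. Within obese mice the replicate block by description number changed the call of Itgax between CD11c-negative and MHCII-low macrophages and no other integrin call, and the block by title number left those calls within obese mice. CPM without TMM scaling moved 4 group levels by more than their SD and left 52, and ratios without length scaling moved in 33 cases and stayed in 9. The cause of the moves below was not tested.

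For obese CD11c-negative minus MHCII-low macrophages (0 integrins and 699 genes called) the counts were 1 and 1215 with no filter, 1 and 1332 with the replicate block by description number (0 and 813 by title number), 1 and 1233 with DESeq2 and 1 integrin with the compared libraries alone, and 0 to 1 and 235 to 505 without single libraries. For CD11c-positive minus CD11c-negative (2 and 801) all genes called were 1435 with no filter, 2364 with the block by description number (1009 by title number), 3172 alone and 2159 with DESeq2, and 81 to 393 (integrins 1 to 2) without single libraries. For lean CD11c-negative minus MHCII-low (298 genes) they were 633, 649 alone, 593 with DESeq2 and 135 to 189. Lean monocyte-derived minus CD11c-negative (10027) fell to 5386 alone, and obese monocyte-derived minus CD11c-negative (5461) to 3239 to 4624 without single libraries.

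For diet in monocyte-derived cells (2 and 3946) the compared libraries alone gave 0 and 122, and single libraries left out gave 1 to 5 and 1707 to 9903, the highest without lean replicate 2. Diet in MHCII-low (7030) gave 3323 to 6281 and in CD11c-negative macrophages (7422) 4493 to 6076. The difference of diet effects between CD11c-negative and MHCII-low macrophages (0 genes) gave 2 integrins and 123 genes with no filter, 3 genes with DESeq2 and 0 to 2 without single libraries. That of monocyte-derived cells against MHCII-low (993) gave 1632 with no filter, 1503 with the block, 315 alone, 1829 with DESeq2 and 415 to 2484 (integrins 2 to 3), and against CD11c-negative macrophages (1459) 2833 with the block, 643 alone, 2488 with DESeq2 and 718 to 3124 (integrins 1 to 3).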

Other observations

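Vcam1, which encodes a ligand of α4β1, differed between some of the populations. It stood at 107 ± 25.7 CPM in lean CD11c-negative and 18.4 ± 4.04 CPM in lean MHCII-low macrophages (SD, n = 3; log2 2.54, SE 0.22, adjusted p = 1.01e-06), and at 14.1 ± 2.16 CPM in obese monocyte-derived cells against 67.3 ± 10.1 CPM in obese CD11c-negative macrophages (log2 -2.26, SE 0.22, adjusted p = 3.88e-07). Icam1, a ligand of αLβ2, was lower in obese mice in all 3 populations, by log2 -0.34, -0.42 and -0.54, the last being -0.44 without lean monocyte-derived replicate 2. Spp1, which encodes osteopontin, a ligand of α4 and αv integrins, was higher in obese mice in all 3, by log2 2.25, 2.86 and 1.94, the last being 2.33 without that library. Of 20 ligand genes tested out of 25, 2 were called higher and 5 lower for diet in MHCII-low macrophages (16.8% and 13.8% of all genes), 1 and 3 in CD11c-negative macrophages (16.8% and 15.6%) and 3 and 2 in monocyte-derived cells (7.44% and 9.76%). The last was 4 and 4 of 21 without lean monocyte-derived replicate 2 (16.5% and 21.9% of all genes). Between obese monocyte-derived cells and CD11c-negative macrophages 4 of the 20 were higher and 3 lower (11% and 12.8%).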
